A study of Rattus norvegicus with 18 samples.

Results

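The comparison concerned the intact striatum: the 3 control side striata of L-DOPA rats were set against the 3 control side striata of UNT rats, 6 of the 18 striata of the study, and 450223 CpGs were read in all 6. All rats were juvenile male Wistar rats that carried a unilateral lesion of the dopaminergic fibres, made with 6-OHDA in the left medial forebrain bundle on postnatal day 21, so that the control side is the unlesioned hemisphere of a lesioned animal and not a striatum of an intact rat. L-DOPA rats received 6 mg/kg L-DOPA methyl ester with 15 mg/kg benserazide, which blocks decarboxylation of the drug in the periphery, in 6 administrations between postnatal days 35 and 49 and once more on day 53, when the tissue was collected 2 h later. UNT rats received saline. Where the text gives values of further striata, these are the lesioned sides of both treatments and the control sides of rats that received 6 mg/kg Riluzole, a drug that reduces glutamate release, with L-DOPA (L-DOPA + R).

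L-DOPA is taken up into the brain and converted to dopamine, which acts on the medium spiny neurons of the striatum through D1 and D2 receptors. In the intact striatum, dopaminergic terminals are present and take up, store and release the transmitter, while in the denervated striatum they are lost. DNA methylation at CpGs is low in most promoters of active genes, high in most gene bodies and intergenic DNA, and intermediate where cells, alleles or animals differ. RRBS reads the CpGs close to the cut sites (CCGG) of the enzyme MspI. Bisulfite turns unmethylated cytosines into bases that are read as T, so that an inherited change from C to T is read in the same way as an unmethylated cytosine. The striatum was sampled as bulk tissue, so that a change within a cell type and a change in the share of cell types cannot be told apart.

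The methylation level of a CpG is the percentage of its reads with a C in 1 striatum, and a difference is L-DOPA minus UNT in percentage points, from the reads of each group added up. Cytosines with 10 or more reads were used, and cytosines 46 to 50 bases downstream of a called cytosine on their own strand, where reads of 50 bases end, were left out. Differentially methylated sites (DMS) had a q under 0.01 (logistic model per CpG with overdispersion correction, chi-square test, Benjamini-Hochberg adjustment over all tested CpGs). Calls per striatum ranged from 18471279 to 30764504 in L-DOPA and from 33567099 to 44030774 in UNT, and the median coverage of a tested CpG was 17 to 29 reads in the L-DOPA and 31 to 42 reads in the UNT striata. Of the reads of the methylated spike-in, 98.1% to 98.4% had a C at CpGs in both groups. For the unmethylated spike-in the share was 0.360%, 0.411% and 0.429% in the L-DOPA and 0.681%, 0.718% and 0.928% in the UNT striata. Unmethylated cytosines were thus read as methylated slightly more often in every UNT striatum, in the direction of lower levels in L-DOPA, and the part of this in small differences was not tested. A single striatum gives a level with a 95% Wilson interval whose median width at the DMS was 21.8 points, and this covers counting error only.

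In the intact striatum, methylation at 180 of 450223 CpGs differed between L-DOPA and UNT, 0.04% of those tested. L-DOPA striata were hypomethylated at 102 DMS (0.0227% of tested CpGs) and hypermethylated at 78 (0.0173%). The median difference was -34.7 points among the hypomethylated and 44.2 points among the hypermethylated DMS, while the median size over all tested CpGs was 2.38 points. At 50 DMS the groups were at least 50 points apart. The 3 L-DOPA striata all lay on one side of the 3 UNT striata at 176 of the 180 DMS, and 7.61% of all tested CpGs had groups that did not overlap. The 4 DMS with overlapping groups were 3 neighbouring CpGs on chr1 described further down and an intergenic CpG at chr10:16073573, all with L-DOPA rat 2 at 0% like the UNT rats.

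These calls rest on the chi-square test of the methylKit method. The F test of the same model called 0 DMS, with 5356 CpGs at an unadjusted p under 0.05 against 30200 (6.71%) by the chi-square test, and limma called 41. Without UNT rat 3, the count rose to 331. It was 98 with a minimum of 20 reads and 970 without overdispersion correction. With only cytosines at 50 bases past a called one left out it was 447, and with those at 46 to 50 bases kept 1250. At 105 of the 180 DMS the dispersion was at its floor of 1, so that their p rests on the counting of reads alone, while at the others it also takes in the spread between these 6 rats.

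Before single genes are described, 2 properties of the reads need to be given beside the DMS. The first is the strand. In RRBS a CpG can be read on the forward strand, the reverse strand or both, and 127 of the 180 DMS (83 lower, 44 higher) were read on the same strand or strands in all 6 striata. At the other 53 DMS (19 lower, 34 higher), the strands differed between striata, which held for 16.8% of all tested CpGs and 29.4% of the DMS. At 17 DMS, all higher in L-DOPA, the L-DOPA striata were read on one strand alone and the UNT striata on the opposite one, and 52 tested CpGs in all had this arrangement. With the test run on the 374462 CpGs with even strands alone, an alternative chosen after seeing the data, 121 DMS were called (78 lower, 43 higher).

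The second property is the distance to a called cytosine of the same strand. Cytosines 41 to 45 bases past one, next to the range left out, made up 10.6% of tested CpGs but 27.8% of DMS, 12 of the lower and 38 of the higher. In all 17 DMS read on opposite strands, the strand of the UNT striata was the one 41 to 45 bases past a called cytosine, and in 0 of them that of the L-DOPA striata. Leaving out cytosines 41 to 50 bases past a called one, again chosen after seeing the data, gave 125 DMS (85 lower, 40 higher). DMS with even strands and outside the 41 to 45 bases numbered 104, of which 71 were lower and 33 higher. The share of hypomethylated DMS was 56.7% as first tested, 64.5% with even strands and 68.0% with the wider range left out. It did not move one way with the range, since it was 52.8% with only cytosines at 50 bases left out and 80.1% with those at 46 to 50 bases kept. It was under 50% without L-DOPA rat 3 (77 lower, 87 higher, 47.0%) and by limma (17 lower, 24 higher, 41.5%), so that the majority of lower sites did not hold in these fits. The part of strand and read position in single differences was not tested beyond these counts.

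**Figure D1:**
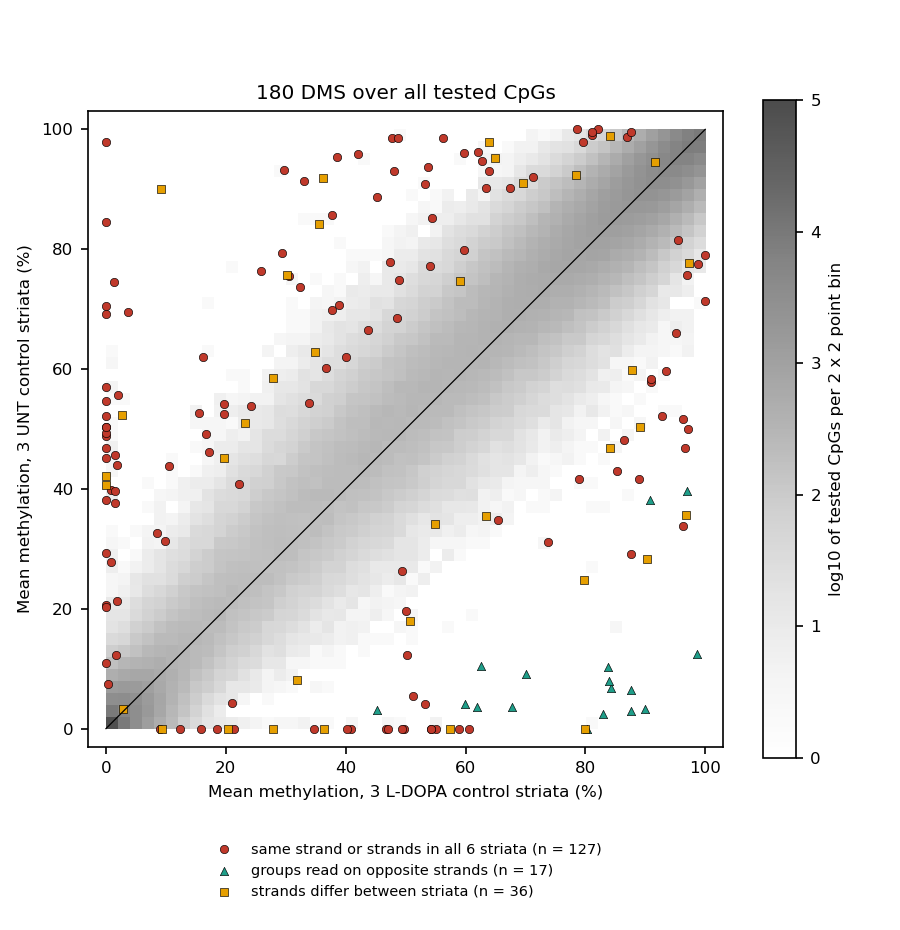
Mean methylation (%) of the 3 L-DOPA control striata (horizontal axis) against that of the 3 UNT control striata (vertical axis) for the 180 DMS, over the density of all 450223 tested CpGs in grey (log10 scale). Circles are the 127 DMS with even strands, triangles the 17 DMS whose groups were read on opposite strands, which lie at the lower right, and squares the other 36. On the axes at 0% lie 20 DMS for L-DOPA and 24 for UNT.

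Among the 12 hypermethylated DMS with the smallest p, the CpG at chr11:8893036, with no region given in the study's lists, stood first. Its scaled coverage was lower in L-DOPA by 1.04 on the log2 scale. Its level was 95.3%, 97.9% and 96.5% in L-DOPA and 46.2%, 45.1% and 49.4% in UNT, at 48 to 231 reads, and the difference was 49.3 points (q = 5.7e-37). The intergenic CpG at chr11:8893132, 96 bases away, was a DMS in the opposite direction, with 19.05%, 16.7% and 23.3% in L-DOPA and 58.8%, 50.9% and 52.7% in UNT (-33.9 points, q = 0.00505), a call lost when any 1 of the L-DOPA rats or UNT rat 1 was left out. Within D2hgdh, which encodes a mitochondrial enzyme that oxidises D-2-hydroxyglutarate, an intronic CpG (chr9:100960006) had 48.3%, 48.6% and 52.3% in L-DOPA and 0% in each UNT striatum, where 0 of 211 reads allow a level of up to 1.42% (49.6 points, q = 3.48e-30). The groups did not overlap at any of these CpGs. On the same stretch of chr9, an intron of Farp2, an exchange factor for small GTPases, showed the same kind of difference at chr9:100729123: 46.9%, 34.8% and 38.9% in L-DOPA and 0%, 0% and 0% in UNT (40.7 points, q = 9.69e-16). An intergenic CpG at chr9:100984696 had 50%, 58.6% and 39.6% against 0% in all UNT striata (q = 3.26e-22). Of the 104 CpGs tested between chr9:100729123 and chr9:100984696, these 3 included, 43 were lower and 35 higher in L-DOPA, 9 had an unadjusted p under 0.05 (8.65%, against 6.71% of all tested CpGs), and the median difference was 0.

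Rbm20 encodes an RNA-binding regulator of splicing and held 3 intronic DMS within 59128 bases, which did not change in one direction. At chr1:274397891 the level was 98.2%, 97.5% and 95.9% in L-DOPA and 50.6%, 50% and 49.4% in UNT (47.0 points, q = 3.16e-25). At chr1:274457018 it was 0%, 0% and 2.70% in L-DOPA and 42.1%, 31.1% and 46.5% in UNT (-39.6 points, q = 1.05e-13), and the CpG at chr1:274439923 was also lower in L-DOPA (-41.6 points, q = 0.000172). Stxbp3, a syntaxin-binding protein of vesicle fusion, had an intronic CpG (chr2:211633534) at 52.2%, 56.0% and 54.5% in L-DOPA, and 0 of 139 reads were methylated in UNT (q = 2.47e-19). On chr2, outside genes, 2 CpGs had the same form, with 48.3%, 55.6% and 58.8% at chr2:142732476 (q = 2.16e-17) and 36.8%, 33.3% and 39.0% at chr2:142742283 (q = 7.75e-25) in L-DOPA and 0% in every UNT striatum. At the second of these, not all striata were read on both strands. At chr1:148470139 the levels were 91.5%, 90.0% and 91.6% in L-DOPA and 52.5%, 63.0% and 58.1% in UNT (q = 7.71e-23), with a scaled coverage that differed by 1.71 on the log2 scale, higher in L-DOPA.

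The remaining hypermethylated DMS of the first 12 belonged to those with uneven strands. Mad1l1, a component of the mitotic spindle checkpoint, showed 80%, 100% and 82.9% in L-DOPA against 0%, 5.26% and 3.70% in UNT at an intronic CpG (chr12:16565435, q = 9.63e-21), but all L-DOPA reads were of the reverse strand and all UNT reads of the forward strand. The intergenic CpGs chr6:145914142 (82.0 points, q = 6.62e-26) and chr12:15541541 (85.2 points, q = 2.7e-17) were read on opposite strands in the same way. The exonic CpG of Actn2 (chr17:66325363, q = 5.87e-19), which encodes an actinin that crosslinks actin and lies in dendritic spines, was read on the forward strand in L-DOPA alone. On the reverse strand, which all 6 striata shared, its level was 93.5%, 70.6% and 89.7% in L-DOPA and 31.4%, 22.5% and 31.2% in UNT, so that the groups lay apart on that strand too. The Actn2 CpG is among the DMS 41 to 45 bases past a called cytosine, and its scaled coverage was lower in L-DOPA by 0.786 on the log2 scale.

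**Figure D2:**
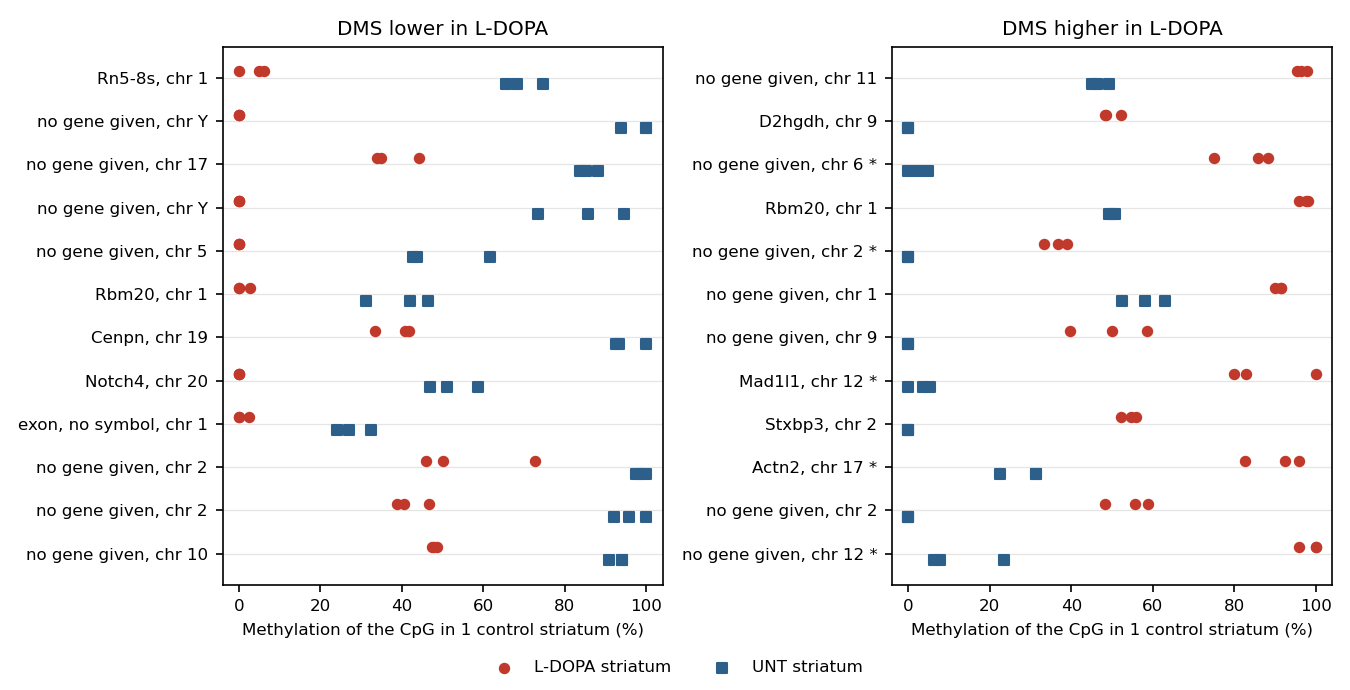
Methylation level (%) of the 12 hypomethylated (left) and 12 hypermethylated (right) DMS with the smallest p in each of the 6 control striata, with L-DOPA as circles and UNT as squares and the smallest p at the top. Asterisks mark the 5 CpGs whose strands differed between striata, and within each row the groups do not overlap.

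Among hypomethylated DMS, the smallest p belonged to a CpG assigned to the promoter of Rn5-8s, a ribosomal RNA gene (chr1:11906165). Its level was 0%, 5% and 6.25% in L-DOPA and 74.8%, 65.6% and 68.4% in UNT (-67.7 points, q = 8.68e-29). The CpGs at chr1:11906154 (8.57%, 9.52% and 13.7% against 41.4%, 44.4% and 45.9%, q = 2.89e-09) and chr1:11906162 (17.1%, 9.09% and 22.4% against 71.6%, 50% and 64.7%, q = 7.34e-08) formed a cluster with it, all lower in L-DOPA. The last of the 6 DMS of this stretch, at chr1:11911488 in an exon of NM_001025002, had 2.47%, 0% and 0% against 32.4%, 24.1% and 26.9% (q = 4.07e-12), with a scaled coverage higher in L-DOPA by 1.11 on the log2 scale. Over the 224 CpGs tested in these 7731 bases, 198 were lower in L-DOPA, with a median of -10.9 points, but the mean per striatum overlapped between the groups, at 27.6%, 22.0% and 34.9% in L-DOPA and 41.2%, 24.5% and 45.2% in UNT. Ribosomal RNA genes are present in many near-identical copies, so that reads of several copies can fall on these positions, and CpGs chr1:11906162, chr1:11906165 and chr1:11911488 lie 41 to 45 bases past a called cytosine.

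Outside that stretch, 2 hypomethylated CpGs of the Y chromosome had the largest differences. At chrY:317799 the level was 0% in each L-DOPA striatum and 100%, 100% and 93.8% in UNT (-97.6 points, q = 8.92e-22), at 11 to 23 reads, so that 0 of 47 L-DOPA reads allow up to 6.38%. At position 9461023 of a Y contig (KL568162v1), L-DOPA was at 0% and UNT at 85.7%, 94.4% and 73.3% (q = 2.16e-18). Of 76 CpGs tested on chrY and 292 on the contig, no further one was a DMS. Intermediate levels in L-DOPA against high levels in UNT were found at chr17:75159371 (44.1%, 34.9% and 33.9% against 83.7%, 88.1% and 85.1%, q = 1.28e-20) and in an intron of Cenpn, a centromere protein (chr19:49463515, 40.7%, 41.7% and 33.3% against 92.6%, 100% and 93.3%, q = 2.28e-13). The same form was seen at chr2:237622891 (46%, 72.7% and 50% against 100%, 98.5% and 97.4%, q = 3.16e-11), chr2:237638301 (38.9%, 46.7% and 40.5% against 95.8%, 92.0% and 100%, q = 3.45e-11) and chr10:8014863 (47.5%, 48.6% and 48.0% against 93.9%, 90.9% and 94.1%, q = 6.26e-11). The last of these had a scaled coverage higher in L-DOPA by 1.11 on the log2 scale and lay 41 to 45 bases past a called cytosine. At chr5:152413872 L-DOPA was at 0% and UNT at 43.8%, 42.9% and 61.5% (q = 1.01e-15).

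Chromosome 20 had the highest share of DMS among the autosomes, 16 of 15614 CpGs (0.102%), and 8 of them lay between chr20:3451695 and chr20:5453658, in the region of the rat major histocompatibility complex (RT1), whose genes present antigens and differ widely between individuals. L-DOPA was lower at 7 of these 8. In Notch4, a Notch receptor of vascular cells, the CpG at chr20:4350026 was at 0% in each L-DOPA striatum and at 50.98%, 58.8% and 46.8% in UNT (q = 2.6e-13). Btnl2, a butyrophilin-like regulator of T cells, had 0% against 50%, 54.5% and 31.1% at chr20:4149526 (q = 1.94e-07), and 2 intronic CpGs of Wdr46, a nucleolar protein, had 0% against 51.4%, 50% and 62.9% (chr20:5453516, q = 1.34e-09) and 0% against 51.4%, 50% and 45.2% (chr20:5453658, q = 7.54e-10). The exception was the class I gene RT1-CE1, with 45.6%, 53.2% and 49.2% in L-DOPA and 29.5%, 24.5% and 24.7% in UNT (chr20:4667041, q = 6.46e-07). Over the 1511 CpGs tested in this span the median difference was 0, and 97 had an unadjusted p under 0.05 (6.42%, against 6.71% of all tested CpGs). Further along chr20, an intronic CpG of Ppil1, a splicing cofactor, was at 0% in L-DOPA and 20%, 18.5% and 22.5% in UNT (chr20:6652149, q = 4.53e-05).

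DMS stood alone for the most part. Only 17 of the 180 had another DMS within 100 bases, in 7 clusters, and 109 had none within 1000000 bases. A tested CpG lay within 100 bases of 157 DMS, and the nearest one differed in the direction of the DMS by a median of 1.61 points, while these DMS themselves differed by a median of 37.1 points. The nearest CpG lay within 10 points of no difference in 113 of the 157 cases (72.0%, against 90.9% of all tested CpGs), moved with the DMS in 97 and against it in 58, and was a DMS in 9. Clusters of 3 DMS occurred 3 times. Beside the Rn5-8s cluster, Ppp1r14b, which encodes an inhibitor of protein phosphatase 1, had 3 hypermethylated CpGs within 39 bases of its promoter and exon. At chr1:222230026 the level was 54.0%, 60.9% and 44.8% in L-DOPA and 0%, 8.33% and 4% in UNT (49.0 points, q = 1.12e-10). At chr1:222229996 and chr1:222229988 the differences were 45.2 points (q = 3.46e-10) and 38.3 points (q = 1.37e-07), and all 5 CpGs tested there were higher in L-DOPA. The scaled coverage of the 3 DMS was higher in L-DOPA as well, by 1.06 to 1.17 on the log2 scale, and its part in the difference was not tested. The last cluster, intergenic, rested on 2 rats: at chr1:181770700 the level was 25% and 35.9% in L-DOPA rats 1 and 3 and 0% in L-DOPA rat 2 and all UNT rats (q = 1.67e-06), with 0% in rat 2 at chr1:181770694 and chr1:181770721 as well.

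At 22 tested CpGs, each group was within 12.5 points of 0%, 50% or 100% in all 3 of its striata and the groups were at different levels, and all 22 were DMS. This definition sets the groups apart with little spread within each, so that nothing is read from all 22 being DMS. L-DOPA was near 50% and UNT near 0% at 8 of them, L-DOPA near 0% and UNT near 50% at 6, L-DOPA near 50% and UNT near 100% at 4, L-DOPA near 100% and UNT near 50% at 3, and L-DOPA near 0% with UNT near 100% at 1. The L-DOPA striata had no methylated read at 20 DMS (11.1%, against 16.4% of tested CpGs), where the UNT mean ranged from 11.03% to 97.9%, and the UNT striata had none at 24 DMS (13.3%, against 14.8%), where the L-DOPA mean ranged from 9.05% to 80.3%. Whether the rats differed in sequence at these CpGs was not tested.

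The DMS were also counted by level. The mean over both groups set the class, so that a large difference by itself moves a CpG to the middle, and nothing is read from the higher share there. CpGs with a mean of 20% to 80% over the 6 striata made up 23.7% of tested CpGs and 75.6% of DMS (136 of 106751, 0.127%), against 23 of 157467 CpGs below 20% (0.0146%) and 21 of 186005 above 80% (0.0113%). In the intermediate class 77 DMS were lower and 59 higher in L-DOPA. CpGs with 5 or more covered CpGs within 100 bases, as in CpG islands, had 17 DMS among 87519 (0.0194%), those with 1 to 4 had 140 among 283487 (0.0494%), and those with none had 23 among 79217 (0.0290%). The differences between these shares were not tested.

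Methylation as a whole did not differ beyond the spread between rats. The mean level was 52.5%, 52.6% and 51.2% in the L-DOPA striata and 53.0%, 52.9% and 52.3% in the UNT striata, and 52.1% ± 0.798 (SD, n = 3) and 52.7% ± 0.385 (SD, n = 3) by group, a difference of -0.663 points (two-sided exact permutation test, p = 0.3, with 0.1 the smallest p that 3 against 3 can give). The difference was -0.208 points without L-DOPA rat 3 and -1.31 points with the reads of all CpGs summed. In the intermediate class the means were 57.0%, 57.1% and 53.2% in L-DOPA and 58.7%, 58.3% and 56.5% in UNT, with L-DOPA rat 3 lowest and overlapping groups (-2.06 points, exact permutation test, p = 0.3). The exact permutation test gave p = 0.3 for CpGs below 20% and p = 0.6 for those above 80%. Adjusted over the 7 tests of all CpGs and of the classes of level and density, no p was under 0.35. L-DOPA was lower at 60.2% of intermediate CpGs.

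The study's lists of sites gave a genomic region for 142 of the 180 DMS, and the other 38 have none here. Of the 142, 13 lay in a promoter, 13 in an exon without a promoter, 33 in an intron alone and 83 between genes. The lists hold sites that the study called, and give no region for the other tested CpGs. The share of each region among tested CpGs is thus not known here, and nothing is read from these counts. Promoters here are those of the lists, and not the placed promoters described further down. The 13 promoter DMS were 6 lower and 7 higher, and beside Rn5-8s and Ppp1r14b they included Nemf, a factor of ribosome quality control (chr6:91676759, 12.7%, 2.86% and 11.6% in L-DOPA and 0% in UNT, q = 0.000163), and Mab21l3 (chr2:204255609, 29.4%, 33.3% and 41.2% against 0%, q = 1.36e-05). Edem2, which takes part in the degradation of misfolded proteins of the endoplasmic reticulum, rose by 76.1 points at a promoter CpG (chr3:151259161, q = 3.8e-09), but with L-DOPA read on the forward and UNT on the reverse strand. Intronic DMS included Nfkb1, a subunit of the transcription factor NF-kB (chr2:240878522, 40%, 31.2% and 70% against 0%, q = 3.27e-05), Ptpn13, a tyrosine phosphatase (chr14:7699845, 0% against 50%, 80% and 77.8%, q = 5.46e-08), and Ank1, an ankyrin of the membrane skeleton (chr16:73812353, 47.5%, 55.7% and 38.9% against 79.8%, 79.4% and 74.1%, q = 1.2e-06). Of Idh2, the mitochondrial isocitrate dehydrogenase, 2 neighbouring CpGs were lower in L-DOPA (chr1:141883059, -29.6 points, q = 0.00503, and chr1:141883065, -22.1 points, q = 0.00261). Hip1, a huntingtin-interacting protein of clathrin coats, had an exonic CpG at 81.5%, 88.2% and 83.3% in L-DOPA and 7.14%, 13.04% and 0% in UNT (chr12:24314310, q = 4.65e-17), read on opposite strands.

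Of the genes on the lists for dopamine signalling, cAMP and calcium, glutamate and GABA receptors, activity-regulated transcription, DNA methylation, synapse and axon guidance and imprinting, 1 held a DMS by these regions, Reln. Of the 176 genes of these lists, 29 had a tested CpG among the study's listed sites. The share of these with a DMS was 3.45%, against 52 of 607 genes of any kind (8.57%). Both shares cover only sites that the study called from its striata. Of the 698 such sites tested in genes, 8.45% were DMS, against 0.04% of all tested CpGs. Nothing is read from 1 gene of 29. Reln encodes reelin, a glycoprotein of the extracellular matrix that guides neurons and acts on synapses. Its intronic CpG at chr4:9457439 had 47.5%, 82.1% and 62.2% in L-DOPA and 95.5%, 100% and 98.4% in UNT (-36.0 points, q = 0.00471), with 28 to 62 reads a striatum. By strand, the forward reads were at 92.9%, 100% and 100% in L-DOPA and 95.5%, 100% and 97.7% in UNT, a difference of 0.694 points. The reverse reads were at 23.1%, 58.3% and 12.5% in L-DOPA and 100% in UNT rats 2 and 3, while UNT rat 1 had none, and 54 L-DOPA and 33 UNT reads lie behind this. The difference at Reln was thus carried by the reverse strand alone, and it was not called with the strand as a term of the model. The call was also lost by the F test, by limma, and without L-DOPA rat 1, L-DOPA rat 3 or any of the UNT rats, while the difference itself ranged from -43.4 to -27.2 points with 1 rat left out.

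**Figure D3:**
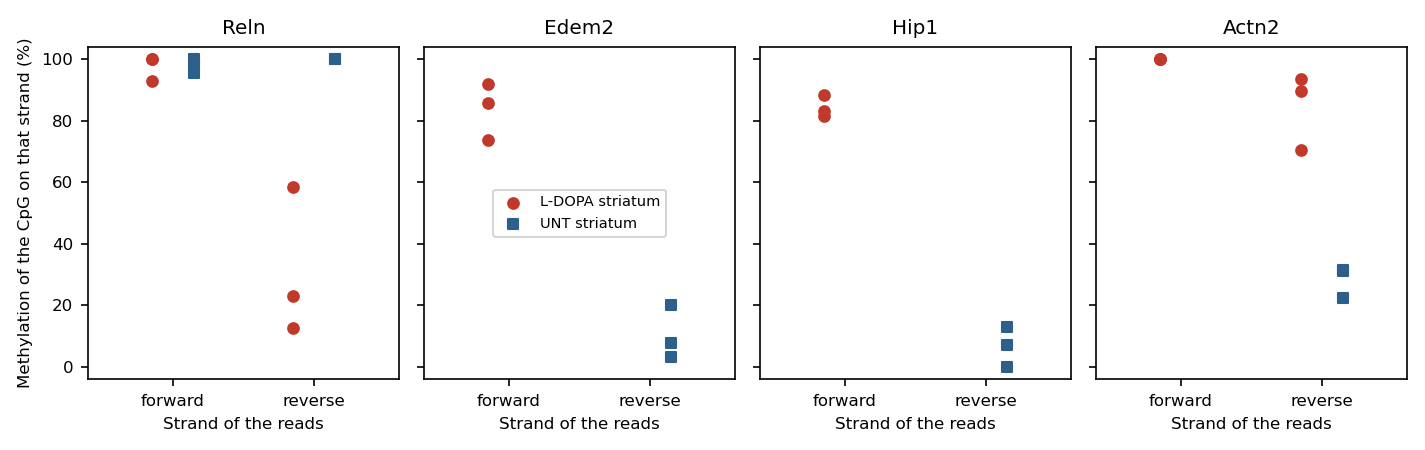
Methylation level (%) by strand of the reads at the DMS of Reln, Edem2, Hip1 and Actn2, 1 point per control striatum (L-DOPA circles, UNT squares; a striatum without reads on a strand has no point). At Edem2 and Hip1 no strand was read in both groups, at Reln the groups differ on the reverse strand and not on the forward strand, and at Actn2 they differ on the reverse strand, the shared one.

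A list of 37 genes was drawn up from the study's text, among them genes of glutamate, calcium, cAMP, adhesion and guidance pathways, without taking in every gene it mentions. Of the 37, 20 had a CpG of the study's site lists among those tested here. Reln was the 1 with a DMS. Next came Grm8, a presynaptic metabotropic glutamate receptor, with 73.4%, 76.3% and 73.3% in L-DOPA and 86.3%, 89.0% and 90.9% in UNT at chr4:55304947 (-14.5 points, q = 0.0244), groups that did not overlap but did not pass the threshold. Its relative Grm4 had 80.9%, 79.6% and 69.9% against 58.3%, 62.8% and 65.0% at chr20:6932893 (14.4 points, q = 0.206). Nrg1, a ligand of ErbB receptors, had 74.4%, 85.2% and 80% against 87.1%, 92.2% and 91.0% (chr16:63989396, q = 0.517). Groups lay apart without passing the threshold also at Nrxn2, a presynaptic adhesion molecule (5.63 points), Robo3, a guidance receptor (-7.27 points), Ptger3, a prostaglandin receptor (7.09 points), and Ncs1, a calcium sensor (-3.30 points). With cytosines 46 to 50 bases past a called one kept, Robo3 was at -40.9 points (q = 1.27e-11) and Dab1 at -34.6 points (q = 1.67e-08), both called. At Dab1, the adaptor of reelin signalling, the groups overlapped (84.0%, 95.7% and 100% against 97.5%, 100% and 92.6%, q = 1), as they did at Camk2b, Synpo, Cacna1b, Cacng8, Pigx, Commd1 and Zrsr1 (1 shared CpG), Adcy7, Ak5 and Pde10a, with differences from -8.16 to 15.6 points. At Tiam1 all 6 striata were at 0%. Among the 20 genes, 13 were lower and 6 higher in L-DOPA, 8 had groups that did not overlap and 9 had an unadjusted p under 0.05, where over all tested CpGs 48.4% were lower, 7.61% had groups that did not overlap and 6.71% had such a p. Each gene stands here with its listed CpG of smallest p, and the CpG of Commd1 and Zrsr1 is counted for both, so that these counts are not like those over all CpGs. The lists were made from these striata and are no independent evidence of a direction.

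Promoters offered a view that does not rest on those lists. RefSeq promoter sequences of GRCr8 (250 bases before to 50 after the start of a gene) were placed on rn6 where at least 8 called CpGs fell on CpGs of the sequence and none beside them, which gave 3935 promoters, 3152 of them with a tested CpG. The median level of their 17735 tested CpGs was 0.397%, and 97.9% of these CpGs were below 20%. They held 1 DMS (0.00564%, against 0.04% of all tested CpGs). Among CpGs with a mean below 20%, 0.00576% were DMS in the placed promoters and 0.0157% outside them. The DMS lay at chr2:54832637, 6 bases after the start of Rpl37, which encodes a protein of the large ribosomal subunit. It lies in a CCGG site, as 23.2% of tested promoter CpGs did. The promoters of Rpl37, of the D2 receptor gene Drd2 and of Dusp1, a phosphatase induced by activity and dopamine, are shown because they carry the single DMS among the placed promoters, a central gene of the pathway and the largest difference among activity-regulated promoters. Capitals mark the DMS in Rpl37 (chr2:55942695-55942994, plus strand) and the tested CpGs in Drd2 (chr8:58605153-58605452, plus strand) and Dusp1 (chr10:17184603-17184902, plus strand), all in GRCr8, 5′ to 3′.
Rpl37: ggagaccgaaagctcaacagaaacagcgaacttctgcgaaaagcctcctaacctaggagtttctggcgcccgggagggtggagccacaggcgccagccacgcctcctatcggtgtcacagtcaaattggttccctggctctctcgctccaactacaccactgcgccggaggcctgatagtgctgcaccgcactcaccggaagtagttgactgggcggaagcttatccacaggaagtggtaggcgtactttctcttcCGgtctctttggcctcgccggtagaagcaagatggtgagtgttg
Drd2: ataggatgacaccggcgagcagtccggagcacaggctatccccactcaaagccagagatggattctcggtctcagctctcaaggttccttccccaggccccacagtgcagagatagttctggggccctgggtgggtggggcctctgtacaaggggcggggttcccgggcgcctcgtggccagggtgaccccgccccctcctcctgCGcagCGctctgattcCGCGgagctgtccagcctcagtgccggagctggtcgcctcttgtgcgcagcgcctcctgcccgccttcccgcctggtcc
Dusp1: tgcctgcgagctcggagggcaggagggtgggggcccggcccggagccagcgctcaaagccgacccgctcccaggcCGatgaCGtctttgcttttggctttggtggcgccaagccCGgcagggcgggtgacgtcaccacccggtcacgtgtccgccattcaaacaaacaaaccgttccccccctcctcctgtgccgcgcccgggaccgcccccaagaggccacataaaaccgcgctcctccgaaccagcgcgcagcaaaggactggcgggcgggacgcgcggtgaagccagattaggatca

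At the capitals of Rpl37, the level was 0% in each L-DOPA striatum (0 of 123 reads, which allow up to 2.44%) and 9.72%, 10.9% and 12.5% in UNT (-10.99 points, q = 0.00867). This call was close to the threshold and was lost in each fit without 1 of the 6 rats. The other 8 CpGs tested in this promoter were between 0% and 30% in every striatum, and none was a DMS. At the 4 tested CpGs of Drd2, the mean was 0% in 5 striata and 1.04% in UNT rat 3. Over the 3 tested CpGs of Dusp1, the mean was 0%, 0% and 0.741% in L-DOPA and 3.23%, 1.67% and 7.94% in UNT, groups that did not overlap, but no CpG was a DMS (smallest q = 0.403).

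**Figure D4:**
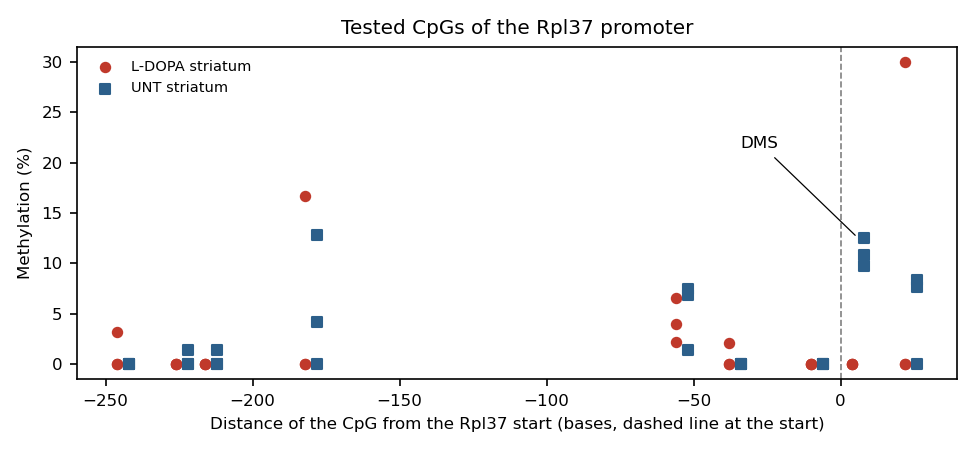
Methylation level (%) of the 9 tested CpGs of the Rpl37 promoter against their distance from the start of the gene in bases, 1 point per control striatum (L-DOPA circles, UNT squares, shifted sideways). At the DMS, 6 bases after the start, the UNT striata lie at 9.72% to 12.5% and the L-DOPA striata at 0%.

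Across the gene lists, 27 promoters with 162 tested CpGs were placed, and 0 of these CpGs were DMS, where 0.04% of all tested and 0.00564% of placed promoter CpGs were, so that nothing about these genes is read from the 0 (chi-square test, smallest unadjusted p = 0.00315 and smallest q = 0.403). In 20 of the 27 promoters the mean was under 5% in all 6 striata, and 17 were lower and 10 higher in L-DOPA. Among activity-regulated genes, Fosb, Egr2, Egr4, Nr4a1, Dusp1 and Dusp6 had 31 tested CpGs, with differences of the promoter mean from -4.03 to 0.523 points. The promoters of Adcy5, Prkacb, Creb1 and Cacna1b, of cAMP and calcium signalling, had 22, with differences from -0.275 to 0.417 points. Those of Gabrb2 and Gabbr1 had 13 and were higher in L-DOPA by 0.933 and 0.665 points, and Grm7 had 6 and differed by -0.0747 points. Mbd2, which binds methylated DNA, and Gadd45b, which takes part in demethylation, had 15 tested CpGs with differences of 0.391 and -0.348 points. The imprinted genes Igf2, Igf2r and Gnas had 11, with differences of 1.53, -1.39 and -2.19 points. Of the synapse and guidance genes, Nlgn2, Ntn4, Ptprm, Robo1, Robo2 and Synpo had 47 tested CpGs, and Synpo, an actin-binding protein of spines, stood out with 0%, 0% and 2.94% in L-DOPA and 10.5%, 8.33% and 4.17% in UNT over 2 CpGs (-6.70 points, smallest q = 0.625). Pigx, of the list drawn from the study's text, had 3 (-0.661 points). Of the cell type lists, the endothelial gene Kdr alone was placed (10 CpGs, -0.323 points), so that the tissue label was not checked by markers.

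The same CpGs were then read on the lesioned side. Control and lesioned striata with the same number deviated from their group in the same way at variable CpGs (correlation of deviations 0.421 to 0.746 for equal and -0.528 to 0.0468 for different numbers, across CpGs). Both sides of lesioned rats were sampled, so that the lesioned striata are no independent group. Of the 180 DMS, 150 were tested there. The difference had the same sign at 140 and the opposite sign at 10, and its median in the direction of the control side was 29.96 points, against 35.1 points on the control side. At 108 of the 150 it was smaller on the lesioned side. Control-side values chose these CpGs, which by itself makes smaller values on the other side likely, so that nothing is read from this. On the lesioned side, 147 of 400443 CpGs (0.0367%) were DMS. Among CpGs tested on both sides, 66 were DMS on both, 44.0% of the 150 of the control side and 47.5% of the 139 of the lesioned side. The difference between the sides itself was called at 0 of 341136 CpGs (0%, logistic model with the product of treatment and side, chi-square test), with 20757 (6.08%) at an unadjusted p under 0.05 and a smallest q of 0.105. Of the 150 DMS, 26 had an unadjusted p under 0.05 in this test, and the choice by control-side values bears on this count too. The F test called 0 as well. At D2hgdh the lesioned striata differed by 47.8 points, at Notch4 by -49.6 points and at Ppp1r14b (chr1:222230026) by 35.4 points. At Reln the difference on the lesioned side was -17.8 points (q = 0.601) and at the Rpl37 CpG it was -1.86 points (q = 1), but at neither did the test between the sides reach its threshold.

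**Figure D5:**
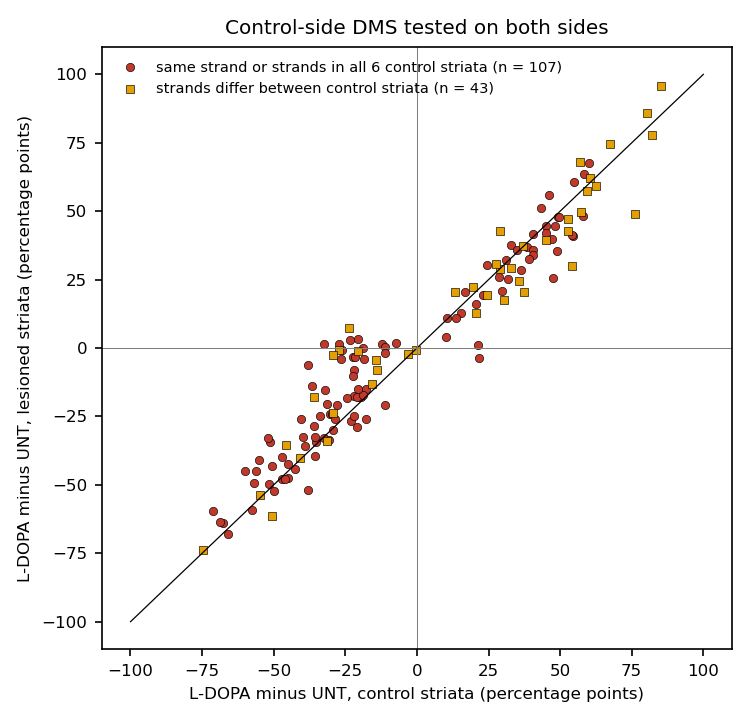
Difference L-DOPA minus UNT (percentage points) on the control side (horizontal axis) and on the lesioned side (vertical axis) for the 150 control-side DMS tested on both sides, with equal values on the diagonal. Circles are the 107 DMS with even strands in the control striata and squares the other 43. Most points lie near the diagonal, and 27 lie within 10 points of no difference on the lesioned side.

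L-DOPA + R rats are further animals, and their control striata were read at 146 of the DMS. Since the levels in L-DOPA and UNT chose these CpGs, the comparison is a description. The L-DOPA + R mean was nearer to L-DOPA at 94 and nearer to UNT at 52, among the hypermethylated DMS at 45 of 59 nearer to L-DOPA and among the hypomethylated at 49 of 87. At 25 of these 146 DMS the 3 L-DOPA + R striata spanned more than 40 points, while the L-DOPA striata did so at 1 of the 146 and the UNT striata at 0. The test that chose these CpGs favours a small spread within L-DOPA and within UNT, so that nothing is read from the wider L-DOPA + R spread. At D2hgdh they had 7.14%, 0% and 80%, at chr9:100984696 0%, 0% and 83.3%, and at Farp2 0%, 0% and 92.6%, so that 1 of the 3 rats stood apart at all of these CpGs of chr9. At Cenpn they had 100%, 28.6% and 84.6%. At Notch4 they had 47.4%, 76.2% and 34.6%, as in UNT, and at chr11:8893036 92.4%, 98.8% and 97.6%, as in L-DOPA. At both intergenic CpGs of chr2 (chr2:142732476 and chr2:142742283) all 3 were at 0%, like UNT.

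The median log2 ratio of coverage, L-DOPA over UNT with each striatum scaled to its reads over the tested CpGs, was 0.03 at DMS and 0.02 over all tested CpGs. Coverage differed by more than 2-fold at 25 DMS (13.9%), higher in L-DOPA at 19, against 1.49% of tested CpGs. The part of this in the differences was not tested. The smallest difference called was that of the 1 mitochondrial DMS (chrM:12875), at 2.85%, 3.02% and 2.90% in L-DOPA and 3.24%, 3.33% and 3.37% in UNT, at 27222 to 59461 reads a striatum (-0.406 points, q = 1.22e-05). The unmethylated spike-in differed between the groups in the same direction and by an amount of that order, from 0.360% to 0.429% in L-DOPA and from 0.681% to 0.928% in UNT. Its part in the mitochondrial difference was not tested. The mitochondrial DMS also had 1 strand read in 1 group alone.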

How the data were processed

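RRBS of 6 control striata (3 L-DOPA, 3 UNT) was analysed, with the lesioned striata and the L-DOPA + R control striata for comparison. The authors trimmed 50-base reads in the RRBS mode of Trim Galore 0.4.0 and mapped them to rn6 with Bismark. Libraries were made with an RRBS kit in pools of up to 6 before bisulfite treatment, and which striata shared a pool is not given in the sources used here. Coverage was deposited as the count of reads per cytosine and strand, without a minimum or normalization. For each cytosine the authors also gave the percent of reads methylated, from which whole counts were rebuilt. Cytosines with 10 or more reads were kept, those 46 to 50 bases downstream of a same-strand cytosine that had 10 or more reads in any of the 6 striata were left out, strands were merged, and CpGs in all 6 were tested with Python 3.11.15, numpy 2.4.6, pandas 2.3.3 and scipy 1.17.1. The model is that of methylKit (logistic regression, overdispersion from Pearson residuals, chi-square test, Benjamini-Hochberg q under 0.01), written anew and checked on simulated data. The simulated reads held no spread between rats, so that the check does not cover how the test handles such spread. limma 3.58.1 in R 4.3.3 was used on log2 ratios of methylated to unmethylated reads plus 1. The depth of 18471279 to 44030774 calls a striatum left a median of 30 reads per tested CpG.

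Sites named were the 12 lower and 12 higher DMS with the smallest p among those with groups apart (1 per cluster), all clusters of 3 or more DMS at most 100 bases apart, DMS in a listed gene, and the listed CpG with the smallest p of each of 37 genes picked from the study's text. Other genes of the listed regions were chosen after their values were seen. Members and lists were chosen with earlier results of these data known. No annotation of rn6 was used. Regions come from the study's site lists (639 sites with rounded positions left out), and gene symbols of accessions and promoter sequences from RefSeq (GRCr8). Of 33469 sequences, 15918 had at least 8 CpGs, 4484 were placed by CpG spacing, and 8 on another chromosome were dropped. This placing was added after the files were seen. The alternatives were a minimum of 20 reads, other ranges left out, other definitions of a called cytosine, each strand on its own, a strand term, the F test, no overdispersion correction, limma, Storey's q, a coverage limit, autosomes, a replicate block, a minimum difference of 20 points and each rat left out. Leaving out 41 to 50 bases and testing CpGs with even strands were chosen after seeing the data.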

Additional observations from a re-analysis of the deposited data

How the results depend on the processing

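The count of 180 DMS was within 1.5 times (121 to 190) under other definitions of a called cytosine, each strand on its own, a strand term, Storey's q, the coverage limit, autosomes, a minimum difference of 20 points, even strands and the wider range left out. It was 98 with a minimum of 20 reads, 1250 with cytosines 46 to 50 bases past a cytosine kept (1001 lower), 447 with only those at 50 bases left out, 970 without overdispersion correction, 41 by limma (24 of them higher) and 0 by the F test. Of the 180, 84 were called at 20 reads, 39 by limma and 129 with each strand on its own. Leaving out 1 rat gave 157 to 331, the highest without UNT rat 3, and between 111 and 136 of the 180 were called in each of these. On the lesioned side 147 DMS became 0 by the F test and 1035 with the cytosines kept. The causes were not tested.

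The same replicate number stands for different rats in L-DOPA and UNT, and the deviations of equal numbers correlated at 0.00710, 0.00883 and 0.0309. A replicate block gave 416 DMS and called 163 of the 180, and for the test between the sides it gave 0 calls. With 2 of 3 numbers correlating best with their own, the numbers were not taken to pair the rats.

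The difference of the mean level ranged from -0.883 to -0.208 points with 1 rat left out, and was -1.31 points with reads summed (exact permutation p = 0.7), -0.810 at 20 reads and -0.730 with the cytosines kept. For 74 sites over the settings, 1465 values had the same direction and side of the threshold, 143 lost the call, 4 gained it and 11 reversed. With 1 rat left out, differences in points ranged from -2.02 to 22.2 at Camk2b, -6.28 to 2.09 at Dab1, -3.94 to 7.21 at Synpo (-0.486 without UNT rat 3), -12.0 to 1.85 at Cacna1b, -11.9 to 6.27 at Adcy7 and -16.3 to 1.21 at Pde10a, none of them a DMS. Reln was at 0.694 points with each strand on its own. With the cytosines kept, Camk2b was at -18.4 points and Synpo at -3.93 (also with only 50 bases left out), and Dab1 (-34.6), Grm8 (-14.5) and Robo3 (-40.9) were called, Grm8 also without overdispersion correction. Where a rat was left out, fewer striata were tested, and the cause of the other shifts was not tested.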
